A study of Mus musculus with 12 samples.

Results

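The immediate early genes described here are 10 genes that were chosen by symbol, namely Fos, Fosb, Junb, Egr1, Egr2, Npas4, Nr4a1, Arc, Ier2 and Dusp1. All 10 were found among the 21937 genes listed for RNA from purified myelin, and all 10 passed the filter that kept 14634 genes for testing, which required that normalized read counts averaged 10 or more. The RNA came from a light membrane fraction, enriched for myelin, that was isolated from the brains of wild-type male c57Bl6/N mice on sucrose density gradients. The mice had an age of 18 days (P18), 75 days (P75), 6 months or 24 months, each age was represented by 3 of the 12 libraries, and no group received a treatment. The 6-month libraries came from individual mice, and as this is not stated for the other ages, p-values measure the spread between libraries, which may in part be technical. The question put to these samples was whether the transcripts in myelin change as the brain matures and ages.

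Immediate early genes are transcribed within minutes of a stimulus, without a need for new protein synthesis, and in the brain they are best known for their induction in neurons by synaptic activity. Calcium and MAP kinase signals reach their promoters through the factors CREB, SRF with its ternary complex partners, and MEF2, which are already present in the resting cell. Most of the products are transcription factors that pass the signal on to later genes, some act directly at synapses or on kinases, and the transcripts are short-lived.

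The 12 libraries held between 20299052 and 27214385 reads on genes, and each value is a read count divided by the size factor of its library, so that 1 read was worth 0.812 to 1.19 normalized counts. The transcript of myelin basic protein, Mbp, took between 9.47% and 20.8% of the reads at P18 and between 4.76% and 8.48% at the later ages. Transcripts of neurons were present as well, with 16 neuronal markers, among them Snap25, summing to between 201100 and 264000 normalized read counts per library. Replicate 3 of P18 stood apart from the other P18 libraries, as it was the highest of the 3 for 44.0% of the genes tested and the lowest for 38.4%. It also held the lowest share of Mbp at that age, and the calls against P18 that changed without it are given beside them. In such a fraction, fewer fragments of a cell type and less RNA per fragment cannot be told apart. Read counts were set against each other with limma across all genes tested, a gene was called at an adjusted p (Benjamini-Hochberg) under 0.1, and for a single gene no exact test of 3 against 3 libraries could go below a p of 0.1.

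The stretches of DNA just before the start sites are shown first, because elements through which such genes respond to a stimulus can lie there. RefSeq promoters on GRCm38.p6 were matched for 7 of the 10 genes, namely Fos, Fosb, Junb, Egr2, Npas4, Nr4a1 and Dusp1. The window searched ran from 250 bases before to 50 after each annotated start, and the 200 bases before the start are printed, 5′ to 3′ on the strand of the gene. Capitals mark the CREB site TGACGTCA or its core TGACG, which is part of the full site, on either strand (where the core reads CGTCA), and in Egr2 also the CArG box, the element bound by SRF.

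Fos: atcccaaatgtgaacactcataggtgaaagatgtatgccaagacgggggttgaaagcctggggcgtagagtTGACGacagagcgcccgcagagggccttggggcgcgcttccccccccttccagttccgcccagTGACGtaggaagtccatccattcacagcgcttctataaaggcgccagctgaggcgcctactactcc
Fosb: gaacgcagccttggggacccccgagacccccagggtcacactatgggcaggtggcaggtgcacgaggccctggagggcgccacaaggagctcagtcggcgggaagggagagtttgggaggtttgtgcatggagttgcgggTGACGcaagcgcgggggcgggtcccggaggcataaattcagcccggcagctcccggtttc
Junb: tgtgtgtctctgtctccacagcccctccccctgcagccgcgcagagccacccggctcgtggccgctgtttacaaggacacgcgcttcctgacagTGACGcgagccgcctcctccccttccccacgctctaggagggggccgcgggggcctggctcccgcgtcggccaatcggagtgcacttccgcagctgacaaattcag
Egr2: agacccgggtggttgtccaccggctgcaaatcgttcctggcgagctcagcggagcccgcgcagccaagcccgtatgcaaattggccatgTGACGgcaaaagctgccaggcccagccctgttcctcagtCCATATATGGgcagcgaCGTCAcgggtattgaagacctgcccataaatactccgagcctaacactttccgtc
Npas4: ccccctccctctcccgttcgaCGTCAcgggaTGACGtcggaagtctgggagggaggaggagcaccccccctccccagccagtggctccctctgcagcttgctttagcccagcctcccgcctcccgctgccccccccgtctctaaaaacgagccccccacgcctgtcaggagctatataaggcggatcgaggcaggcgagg
Nr4a1: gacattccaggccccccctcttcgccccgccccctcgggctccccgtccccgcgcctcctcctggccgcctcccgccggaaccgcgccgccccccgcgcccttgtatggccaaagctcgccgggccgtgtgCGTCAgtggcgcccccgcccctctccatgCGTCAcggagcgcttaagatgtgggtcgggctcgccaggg
Dusp1: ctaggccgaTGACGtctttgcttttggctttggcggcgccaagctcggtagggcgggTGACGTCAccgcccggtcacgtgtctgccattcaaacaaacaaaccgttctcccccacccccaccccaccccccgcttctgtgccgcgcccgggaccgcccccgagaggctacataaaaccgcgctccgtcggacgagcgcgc

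The stretches are those of Fos (chr12:85473690-85473889, plus strand), Fosb (chr7:19310046-19310245, minus strand), Junb (chr8:84978749-84978948, minus strand), Egr2 (chr10:67537669-67537868, plus strand), Npas4 (chr19:4989972-4990171, minus strand), Nr4a1 (chr15:101266646-101266845, plus strand) and Dusp1 (chr17:26508473-26508672, minus strand). The core TGACG was present in the window of each of these 7 genes, for Egr2 in 3 of its 5 annotated starts, whereas 20.8% of 32851 RefSeq promoters of the same length held it on either strand. Nr4a1 had 4 matches to the core, of which the 2 farthest from the start lie outside the printed stretch. The full CREB site, held by 1.79% of all promoters, was found only in Dusp1 among the 7, at 143 bases before the start. The CArG box, held by 1.63% of all promoters, was found among the 7 only in Egr2. It was there in 4 of its 5 windows, 72 bases before the start in the window shown. The 3 Egr2 windows with the core overlap and share the same core matches and the same CArG box, CCATATATGG. The remaining window with a CArG box holds a different match, CCTTTTTTGG. The TATA motif TATAAA, present in 13.6% of all promoters and not marked above, lay 33 bases before the start of Fos and directly at the annotated start of Junb. The binding motif of the EGR proteins, GCGTGGGCG (0.612% of all promoters), and the AP-1 motif TGANTCA (7.81%), both searched on either strand, had no match in the windows of these genes. These matches are letters in a window and were not measured as binding sites. Sites outside the window were not searched, and the promoters of Egr1, Arc and Ier2 are not described here.

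Levels of the 10 transcripts differed by a factor that is best read per length, as normalized read counts per kilobase of merged exons averaged over the 12 libraries. Egr1, a zinc finger transcription factor, was the most abundant at 1724 per kilobase and ranked 691st of all listed genes by its mean count. Arc, which encodes a protein that acts on receptor trafficking at synapses and whose mRNA is transported into dendrites, followed at 788 per kilobase. Nr4a1, an orphan nuclear receptor, had 462, Fos 384, Junb 356 and Dusp1, a phosphatase that inactivates MAP kinases, 304 per kilobase. Lower levels per kilobase were measured for Ier2 (119), Npas4 (68.1), Egr2 (44.4) and Fosb (34.4). The lowest read count behind any value was 66, for Egr2, so that none of these genes was near the detection limit.

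Across the 4 ages, 7 of the 10 genes differed by limma's F test with Benjamini-Hochberg adjustment, against 83.8% of all genes tested. They were Fos (adjusted p = 0.0185), Fosb (adjusted p = 0.000622), Egr1 (adjusted p = 0.00036), Egr2 (adjusted p = 7.42e-05), Nr4a1 (adjusted p = 0.000985), Arc (adjusted p = 0.00179) and Ier2 (adjusted p = 0.0981). Junb (adjusted p = 0.209), Npas4 (adjusted p = 0.594) and Dusp1 (adjusted p = 0.425) did not pass. The call of Ier2 was lost when any of 7 single libraries was left out, and those of the other 6 genes were kept with each of the 12 left out. Since most genes differed between ages, the direction of the changes is given beside the count of calls. The 10 genes deviated together within a library, as described below, so a shared direction is not 10 independent observations. Of the 10 genes, 7, namely Fos, Fosb, Junb, Egr1, Egr2, Nr4a1 and Arc, had their highest mean at 6 months and their lowest at P75.

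**Figure D1:**
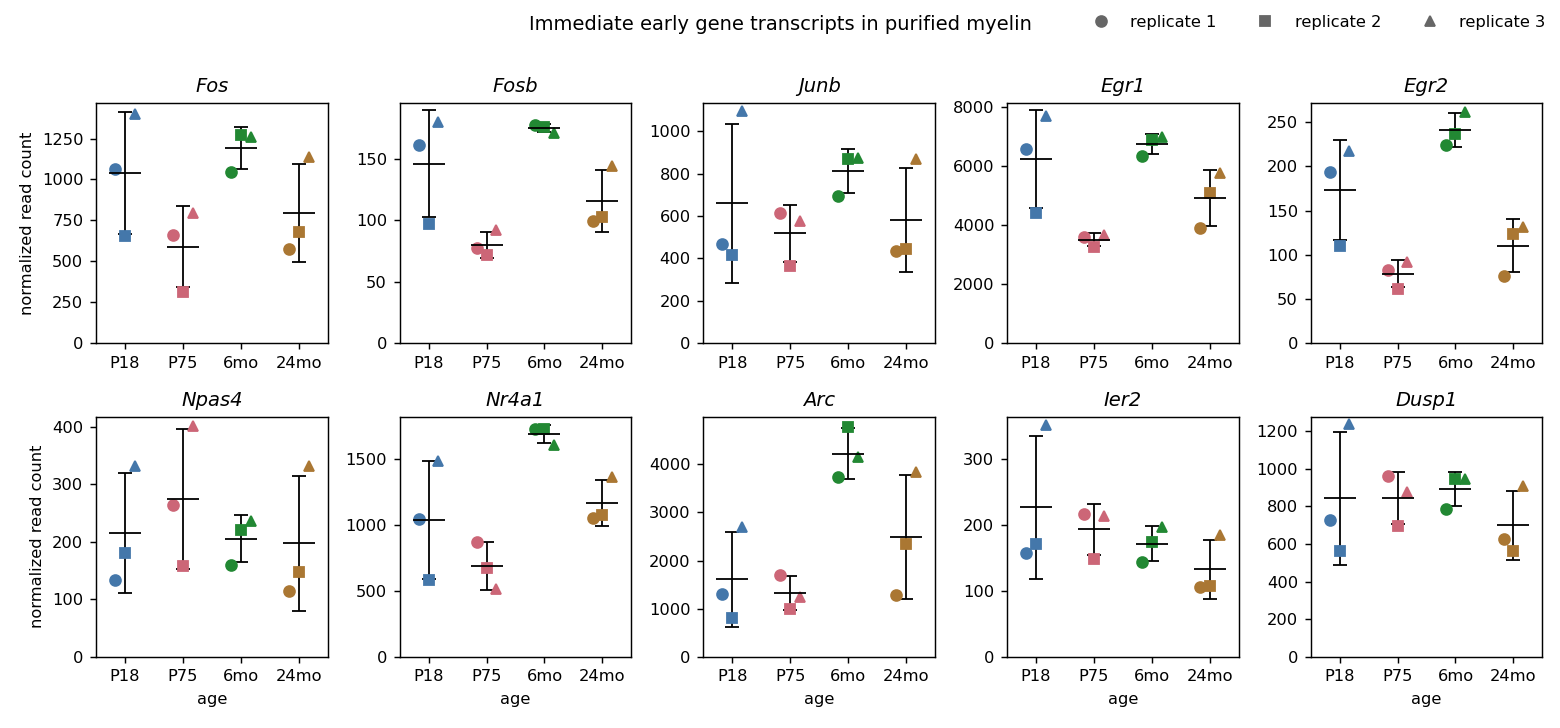
Normalized read count (y axis, linear and starting at 0) of each of the 10 immediate early genes at each age (x axis), with a symbol per library and horizontal bars for the mean ± SD of the 3 libraries. For Fos, Fosb, Junb, Egr1, Egr2, Nr4a1 and Arc the 3 libraries of 6 months lie above the 3 of P75, and in P18 and 24mo the triangle of replicate 3 is the highest symbol in all 10 panels.

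The AP-1 factors were examined first. The FOS and FOSB proteins each pair with a JUN family protein such as JUNB to form AP-1. Fos (chromosome 12, 86814840 to 86818223, plus strand, 4 exons on NCBIM37, the build of the counts) had normalized read counts of 1064, 652 and 1400 at P18, 659, 312 and 795 at P75, 1047, 1270 and 1259 at 6 months and 576, 677 and 1138 at 24 months. The 6-month libraries were all above those of P75, while P18 and P75 overlapped. Fos fell from 1039 ± 375 at P18 to 589 ± 249 at P75 (SD, n = 3 each), a log2 change of -0.85 ± 0.31 (SE, limma adjusted p = 0.0363), and rose to 1192 ± 126 at 6 months, by 1.12 ± 0.31 (limma adjusted p = 0.0063). At 24 months it stood at 797 ± 300, which was not separated from 6 months (log2 change -0.64 ± 0.31, limma adjusted p = 0.154). The fall of Fos from P18 to P75 was lost without replicate 3 of P18 (limma adjusted p = 0.122) and without replicate 2 of P75 (limma adjusted p = 0.217).

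Fosb (chromosome 7, 19888070 to 19895394, minus strand, 4 exons) was the least abundant member per length and varied less between libraries. Its normalized read counts were 162, 97.2 and 180 at P18, 77.2, 71.4 and 91.8 at P75, 178, 176 and 171 at 6 months and 99.1, 103 and 144 at 24 months. Every P75 library lay below every library of the other 3 ages. Fosb fell by 0.82 ± 0.20 on the log2 scale from P18 to P75 (SE, limma adjusted p = 0.0039), rose 2.18-fold from P75 to 6 months (limma adjusted p = 0.00022) and fell by 0.62 ± 0.20 on the log2 scale from 6 to 24 months (limma adjusted p = 0.0417). The last of these calls was lost without replicate 1 or 2 of 6 months and without replicate 1 or 2 of 24 months, with limma adjusted p between 0.101 and 0.143.

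Junb (chromosome 8, 87500811 to 87502617, minus strand, a single exon) followed the same order of ages with weaker support. It had 468, 416 and 1093 normalized read counts at P18, 613, 364 and 578 at P75, 695, 868 and 875 at 6 months and 435, 445 and 866 at 24 months. The 3 libraries of 6 months were above those of P75, and the values at 24 months reached those at 6 months in replicate 3 only. Junb rose 1.60-fold from P75 to 6 months (limma adjusted p = 0.0769), and none of its other comparisons between ages passed. This call was lost without replicate 2 of P75 (limma adjusted p = 0.296), replicate 2 of 6 months (0.165) or replicate 3 of 6 months (0.165), without the filter on low values (0.106) and in DESeq2 (0.201).

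The EGR factors are zinc finger proteins, of which EGR2 is also known for its role in peripheral myelination. Egr1 had 6590, 4417 and 7702 normalized read counts at P18, 3584, 3245 and 3674 at P75, 6350, 6867 and 6988 at 6 months and 3886, 5073 and 5764 at 24 months. The P75 libraries were the lowest of all and did not overlap with any other age. Egr1 fell by 0.80 ± 0.17 on the log2 scale from P18 to P75 (SE, limma adjusted p = 0.00116), rose 1.92-fold to 6 months (limma adjusted p = 0.000185) and fell by 0.47 ± 0.17 on the log2 scale to 24 months (limma adjusted p = 0.0539). The last of these calls was lost without replicate 2 or 3 of 6 months and without replicate 1 or 2 of 24 months, with limma adjusted p between 0.104 and 0.237. An annotated gene on the opposite strand, Gm17507, overlaps Egr1, and without strand information its reads and those of Egr1 cannot be told apart.

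Egr2 (chromosome 10, 66998223 to 67004936, plus strand, 5 exons) showed the largest falls among the 10 genes from P18 to P75 and from 6 to 24 months. Its normalized read counts were 194, 110 and 217 at P18, 83.2, 61.2 and 91.8 at P75, 224, 236 and 262 at 6 months and 76.3, 123 and 131 at 24 months. The 6-month libraries were above all others, and those of P75 and 24 months overlapped. By P75 Egr2 had fallen from its P18 level by a log2 change of -1.09 ± 0.24 (SE, limma adjusted p = 0.00179), until 6 months it rose 3.07-fold (limma adjusted p = 4e-05), and to 24 months it fell by 1.16 ± 0.24 on the log2 scale (limma adjusted p = 0.00503).

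Nr4a1 (chromosome 15, 101097277 to 101105223, plus strand, 7 exons) had 1044, 582 and 1482 normalized read counts at P18, 873, 676 and 511 at P75, 1725, 1728 and 1605 at 6 months and 1054, 1076 and 1364 at 24 months. The 6-month libraries were above all others, and those of P18 and P75 overlapped. Nr4a1 rose 2.51-fold from P75 to 6 months (limma adjusted p = 0.000269) and was also 1.74-fold higher at 6 months than at P18 (limma adjusted p = 0.00863). Its fall from P18 to P75, by 0.53 ± 0.24 on the log2 scale (SE, limma adjusted p = 0.0946), was lost when any of 9 single libraries was left out. That call was also lost in DESeq2 (adjusted p = 0.12), and in limma with equal totals (0.219), only those ages (0.175) or no filter (0.13). From 6 to 24 months the log2 change of Nr4a1 was -0.54 ± 0.24, which did not pass (limma adjusted p = 0.123). With only those ages in the fit it did (limma adjusted p = 0.00193).

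Npas4 (chromosome 19, 4984355 to 4989971, minus strand, 8 exons) encodes a factor that in neurons is induced by calcium influx more selectively than other immediate early genes. It had normalized read counts of 133, 180 and 331 at P18, 265, 158 and 401 at P75, 159, 220 and 236 at 6 months and 114, 147 and 331 at 24 months. The ages overlapped, and the spread within an age was as large as the differences between ages. No comparison of Npas4 passed, and its change from P75 to 6 months, at -0.34 ± 0.38 on the log2 scale (SE, limma adjusted p = 0.47), had the opposite sign to that of the factors above.

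The 3 members that are not classical transcription factors differed among themselves. Arc (chromosome 15, 74499513 to 74503000, minus strand, 3 exons) had 1307, 810 and 2703 normalized read counts at P18, 1703, 1002 and 1251 at P75, 3739, 4782 and 4146 at 6 months and 1281, 2341 and 3840 at 24 months. The 6-month libraries were above all those of P18 and P75, while at 24 months the replicates were 3.0-fold apart. Arc rose 3.26-fold from P75 to 6 months (limma adjusted p = 0.00101), the largest rise among the 10 genes, and was 2.96-fold higher at 6 months than at P18 (limma adjusted p = 0.0014). From 6 to 24 months it fell by 0.90 ± 0.37 on the log2 scale (SE, limma adjusted p = 0.0932), a call that was lost in edgeR (adjusted p = 0.138), in DESeq2 (adjusted p = 0.285) and when any of 7 single libraries was left out.

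Ier2 (chromosome 8, 87185230 to 87186751, minus strand, a single exon), a nuclear protein induced by growth factors, did not rise at 6 months. Its normalized read counts were 158, 171 and 352 at P18, 217, 148 and 214 at P75, 144, 174 and 197 at 6 months and 106, 108 and 184 at 24 months. The means declined in the order of age, from 227 ± 108 at P18 to 133 ± 44.6 at 24 months (SD, n = 3 each). No consecutive step passed, but Ier2 was lower at 24 months than at P18, by 0.72 ± 0.27 on the log2 scale (SE, limma adjusted p = 0.0276), and lower than at P75 (log2 change -0.57 ± 0.27, limma adjusted p = 0.0927). The call against P18 was lost without replicate 3 of P18 (log2 change -0.35, limma adjusted p = 0.163) and without replicate 1 (0.108) or replicate 2 (0.105) of 24 months. The call against P75 was lost in edgeR (adjusted p = 0.138), in DESeq2 (adjusted p = 0.218), without the filter on low values (limma adjusted p = 0.128) and when any of 7 single libraries was left out.

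Dusp1 (chromosome 17, 26642535 to 26645464, minus strand, 2 exons) had 728, 562 and 1240 normalized read counts at P18, 962, 694 and 878 at P75, 787, 947 and 944 at 6 months and 627, 562 and 908 at 24 months. The ages overlapped, with means between 699 ± 184 at 24 months and 893 ± 91.4 at 6 months (SD, n = 3 each). No comparison of Dusp1 passed, and its log2 changes were 0.07 ± 0.22 from P18 to P75 and 0.09 ± 0.22 from P75 to 6 months.

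The comparisons between consecutive ages were then read over the 10 genes together. From P18 to P75, 5 were called lower, Fos, Fosb, Egr1, Egr2 and Nr4a1, and none higher, against 22.9% of all genes called lower and 48.8% called in either direction. The median log2 change of the 10 genes was -0.38, against 0.015 over all genes tested. The replicates did not overlap for 3 of them, Fosb, Egr1 and Egr2, against 22.6% of all genes that were lower without overlap. Without replicate 3 of P18, Fos and Nr4a1 lost the call, the fitted changes of Junb, Arc and Ier2 turned to 0.20, 0.32 and 0.21 on the log2 scale, and Dusp1 was called higher (0.39, limma adjusted p = 0.079). Without replicate 2 of P75 the count was 3, again without Fos and Nr4a1. Markers of myelin moved in the same direction, with 9 of 12 called lower and 1 higher and a median log2 change of -1.12, and their part in the result was not tested.

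From P75 to 6 months, 7 were called higher, Fos, Fosb, Junb, Egr1, Egr2, Nr4a1 and Arc, and none lower, against 31.2% of all genes called higher and 60.6% called in either direction. The same 7 were higher without overlap between replicates, against 32.1% of all genes. Over 2-fold rises were called for 5, Fos, Fosb, Egr2, Nr4a1 and Arc, whereas 5.3% of all genes were called with a rise of that size. The median log2 change was 1.03, against 0.005 over all genes tested. Of these 7 calls, 6 were kept under each alternative run, and that of Junb was not.

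From 6 to 24 months, 4 were called lower, Fosb, Egr1, Egr2 and Arc, against 12.7% of all genes called lower and 29.3% called in either direction, and the fitted change was below 0 for all 10, although that of Npas4 turned to 0.12 without replicate 1 of 24 months. The median log2 change was -0.55, against 0.028 over all genes tested. A fall over 2-fold was called for Egr2 only, against 0.465% of all genes. Values without overlap were found for Fosb, Egr1, Egr2 and Nr4a1, against 20.3% of all genes that were lower without overlap. The count rested on the libraries used, since it was 1 without any of replicate 2 of 6 months, replicate 1 of 24 months or replicate 2 of 24 months, 2 without replicate 1 or replicate 3 of 6 months, and 7 without replicate 3 of 24 months. Leaving out replicate 3 of P18, which enters only through the shared estimate of the spread, gave 8. The calls over all genes moved too, from 4287 with every library to 2763, 2821 and 2492 in the runs that gave 1. They were 2478 and 3863 in the runs that gave 2, 3578 in the run that gave 7 and 5323 in the run that gave 8.

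**Figure D2:**
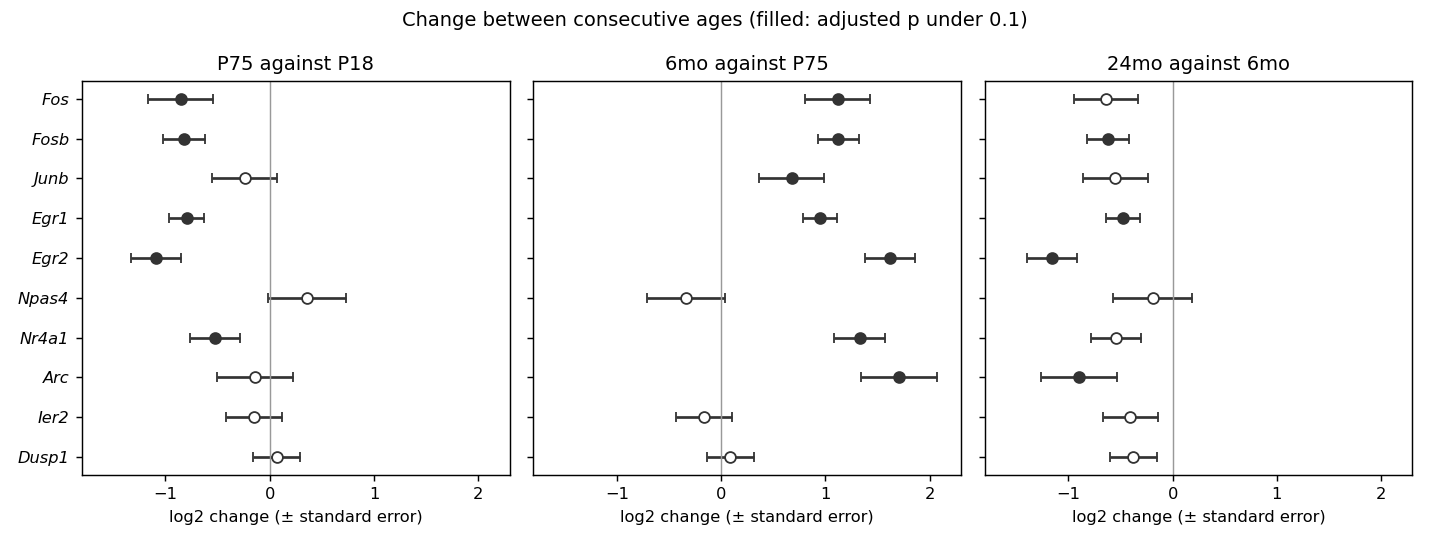
Log2 change of the 10 immediate early genes (rows) between consecutive ages, with the standard error of the fit as bars, filled points for an adjusted p under 0.1 in limma and open points for the rest. The points of P75 against P18 lie mostly left of 0, those of 6mo against P75 reach 1.70 for Arc with Npas4 and Ier2 left of 0, and all 10 points of 24mo against 6mo lie left of 0.

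Non-consecutive ages were compared as well, and they share libraries with the comparisons above. At 6 months against P18, Egr2, Nr4a1 and Arc were called higher and none lower, 3 of 10 against 35.1% of all genes called higher and 69.3% called in either direction, and without replicate 3 of P18 the count was 7, with Fosb, Junb, Egr1 and Dusp1 added. The calls of Nr4a1 and Arc were kept with each library left out, and that of Egr2 was lost without replicate 2 of P18 (limma adjusted p = 0.38), replicate 2 of 6 months (0.109) or replicate 3 of 6 months (0.16). At 24 months against P18, Egr1 (log2 change -0.33 ± 0.17, limma adjusted p = 0.0951), Egr2 (-0.63 ± 0.24, limma adjusted p = 0.0308) and Ier2 were called lower, against 34.3% of all genes called lower and 69.0% called in either direction, and none of the 10 was free of overlap, against 66.6%. Without replicate 3 of P18 all 3 calls were lost (limma adjusted p = 0.386 for Egr1, 0.122 for Egr2 and 0.163 for Ier2), and Nr4a1 (log2 change 0.57, limma adjusted p = 0.0212) and Arc (1.13, limma adjusted p = 0.00363) were called higher instead. The call of Egr1 was lost when any of 10 single libraries was left out. The count moved from 3 to 1 without replicate 1 of P18, replicate 1 of 24 months or replicate 2 of 24 months, to 6 without replicate 2 of P18 and to 5 without replicate 3 of 24 months. At 24 months against P75, Fosb, Egr1, Nr4a1 and Arc were called higher, against 28.8% of all genes, and Ier2 was called lower, against 26.1%, 5 of 10 in all against 54.9%, and the count fell to 3 without replicate 1 of P75, replicate 2 of 24 months or replicate 3 of 24 months. Of these 5 calls, that of Nr4a1 was the only one kept with each library left out.

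By the order of their means, Fos, Fosb, Junb, Egr1 and Egr2 ran from 6 months through P18 and 24 months to P75, whereas Nr4a1 and Arc ran from 6 months through 24 months and P18 to P75. Neighbours in these orders were mostly not separated. Of the 15 neighbouring pairs of ages among the first 5 genes, 5 passed, namely 24 months above P75 for Fosb (limma adjusted p = 0.0482) and Egr1 (limma adjusted p = 0.0281), P18 above 24 months for Egr1 and Egr2, and 6 months above P18 for Egr2 (limma adjusted p = 0.0648). For Nr4a1, P18 was above P75, and for Arc, 6 months was above 24 months. Each of these calls was lost in at least 1 run with a single library left out. No neighbours passed for Fos, Junb, Npas4, Ier2 or Dusp1.

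Libraries of the same age differed more in these transcripts than in most others. The residual SD on the log2 scale, from the fit with age, ranged from 0.26 for Egr1 to 0.638 for Npas4, with a median of 0.42 over the 10 genes against 0.152 over all genes tested and 0.133 over 11305 genes whose mean was 100 or more. Of the 10 genes, 8 were in the tenth of genes with the largest SD, which begins at 0.34. Npas4 (0.841% of genes had a larger SD), Arc (0.957%), Fos (2.08%) and Junb (2.13%) varied most, and Fosb (14.5%) and Egr1 (19.0%) least.

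**Figure D3:**
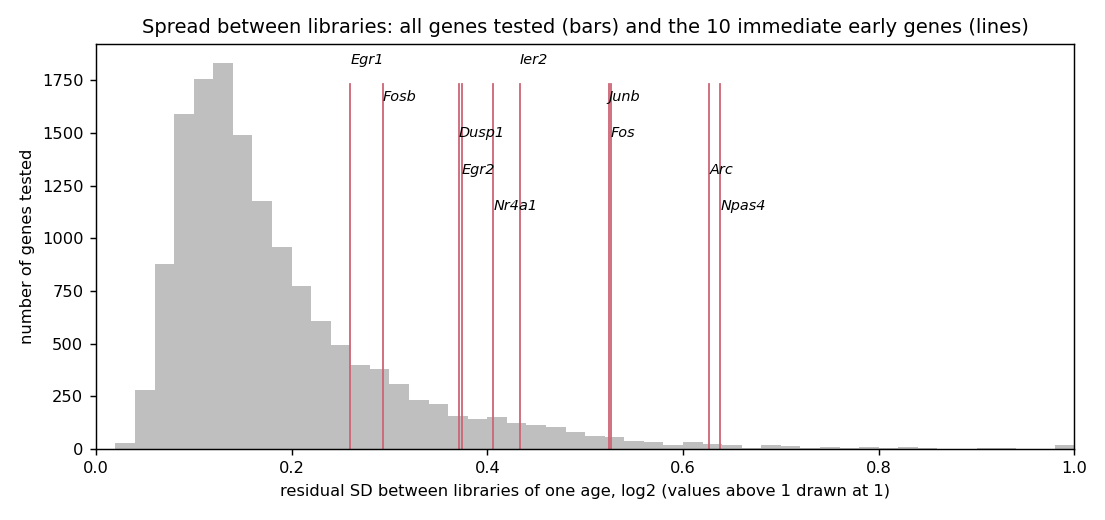
Residual SD between libraries of the same age on the log2 scale (x axis) for all 14634 genes tested, as a histogram of the number of genes (y axis), with a line for each of the 10 immediate early genes. The lines run from 0.26 for Egr1 to 0.638 for Npas4, to the right of the bulk of the genes, whose median is 0.152.

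The spread was unequal between ages. The median range between the 3 libraries was widest at P18, with 1.14 on the log2 scale, followed by 0.78 at 24 months, 0.66 at P75 and 0.28 at 6 months, while over all genes tested it lay between 0.22 and 0.30. At 6 months the 10 transcripts thus varied little more than other genes. This difference in spread between ages was not tested.

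The deviations were shared by the 10 genes within a library. At P18, replicate 3 was the highest of the 3 libraries for all 10 genes, with a median log2 deviation of 0.63 from the mean of the age, and replicate 2 was the lowest for 8. At 24 months, replicate 3 was the highest for all 10 genes, with a median deviation of 0.46, and replicate 1 was the lowest for 9. At P75, replicate 2 was the lowest for 9, with a median deviation of -0.35. The share of all genes with their highest value in replicate 3 was 44.0% at P18 and 41.7% at 24 months, and 30.2% of all genes had their lowest P75 value in replicate 2. At 24 months 44.2% of all genes were lowest in replicate 1, and at P18 29.0% were lowest in replicate 2.

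**Figure D4:**
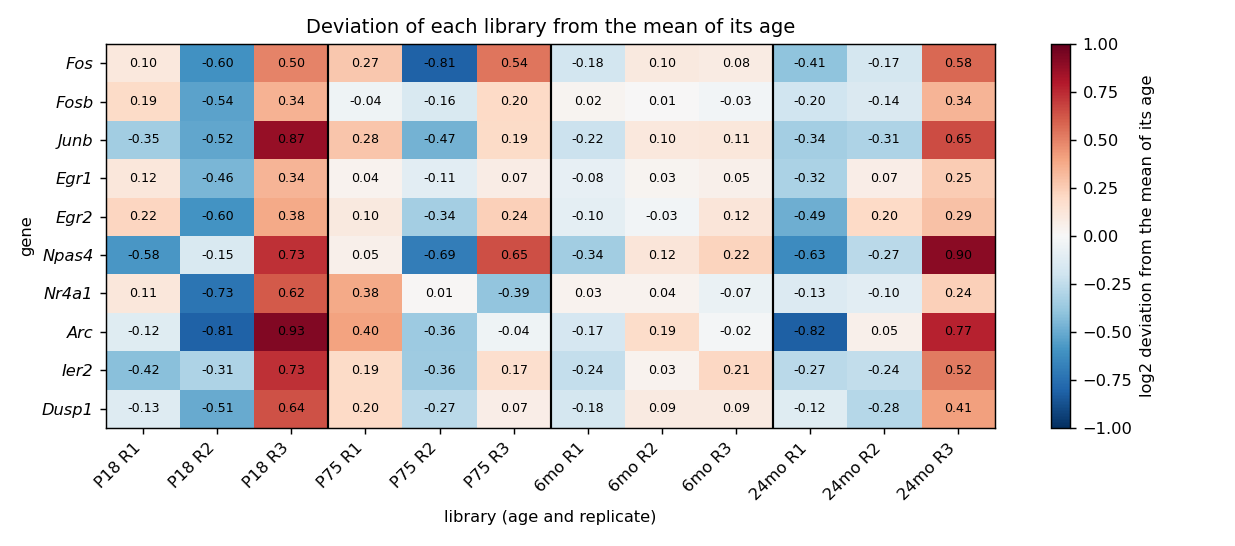
Log2 deviation of each library (columns, 3 replicates per age) from the mean of its age for the 10 immediate early genes (rows), with the value printed in each cell. Columns tend to have a single colour, such as red in replicate 3 of P18 and of 24 months and blue in replicate 2 of P18 and P75, and the 6-month columns are the palest.

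Over the 12 libraries, the deviations of each gene were set against the mean deviation of the other 9, as a description of points that share their library and its depth. Pearson's r was between 0.681 for Nr4a1 and 0.944 for Junb and Arc, and Npas4 and Ier2 followed the others at 0.774 and 0.877 although they did not rise with them at 6 months. The transcripts outside the 10 with the most alike deviations were Spry2, a feedback inhibitor of receptor tyrosine kinase signals (r = 0.96, Spearman's rho = 0.951), Trib1 (r = 0.938), Clp1 (r = 0.928), Zcchc3 (r = 0.914) and Sertad1 (r = 0.913), out of 11295 candidates. By the log2 values themselves, in which age enters as well, Dusp6, a phosphatase that inactivates ERK, was the most alike (r = 0.846, Spearman's rho = 0.79), followed by Anapc7, Tle1, Nisch and Mfhas1 at 0.803 to 0.816.

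Markers of cell types were read beside these results. The 8 measured markers of forebrain excitatory neurons, led by Camk2a and Nrgn, which like Arc have mRNAs found in dendrites, summed to between 52500 and 77360 normalized read counts at P18, 36910 and 48430 at P75, 62400 and 66060 at 6 months and 49560 and 55860 at 24 months. The sum was thus lowest at P75 and higher at 6 than at 24 months, as were the 7 genes named above. At P18 and 24 months the sum was highest in replicate 3, as were the immediate early genes. At P75 it was instead highest in replicate 2 (48430), where 9 of the immediate early genes had their lowest value of that age. Camk2a itself rose 1.81-fold from P75 to 6 months (limma adjusted p = 0.00038), whereas Nrgn had a log2 change of -0.17 ± 0.16 (SE, limma adjusted p = 0.38), and of the 8 markers 3 were called higher and 3 lower. The part of these markers in the result was not tested.

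Other lists moved in their own ways from P75 to 6 months. Of 16 neuronal markers 11 were called higher and 3 lower, against 31.2% and 29.4% of all genes. Their sum nonetheless fell, from between 230800 and 264000 normalized read counts at P75 to between 216500 and 224800 at 6 months. The 2 most abundant, Snap25 (log2 change -0.68, limma adjusted p = 0.00299) and Tubb3 (-0.485, limma adjusted p = 0.00448), were called lower. Of 9 striatal neuron markers 6 were higher and none lower. Of 8 markers of cerebellar granule cells 2 were higher and 2 lower, of 13 astrocyte markers 4 and 2, and of 11 endothelial and mural cell markers 5 and 1. Microglial markers rose with age at each step, with 9 of 14 higher in the first step, 8 in the next and 9 in the last, against 1, 1 and none lower, a course that the 10 genes did not share. Of 5 red blood cell markers, the haemoglobin genes among them, 4 were listed at 0 in every library, and Alas2 was lower at P75 than at P18. The part of these lists in the result was not tested.

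**Figure D5:**
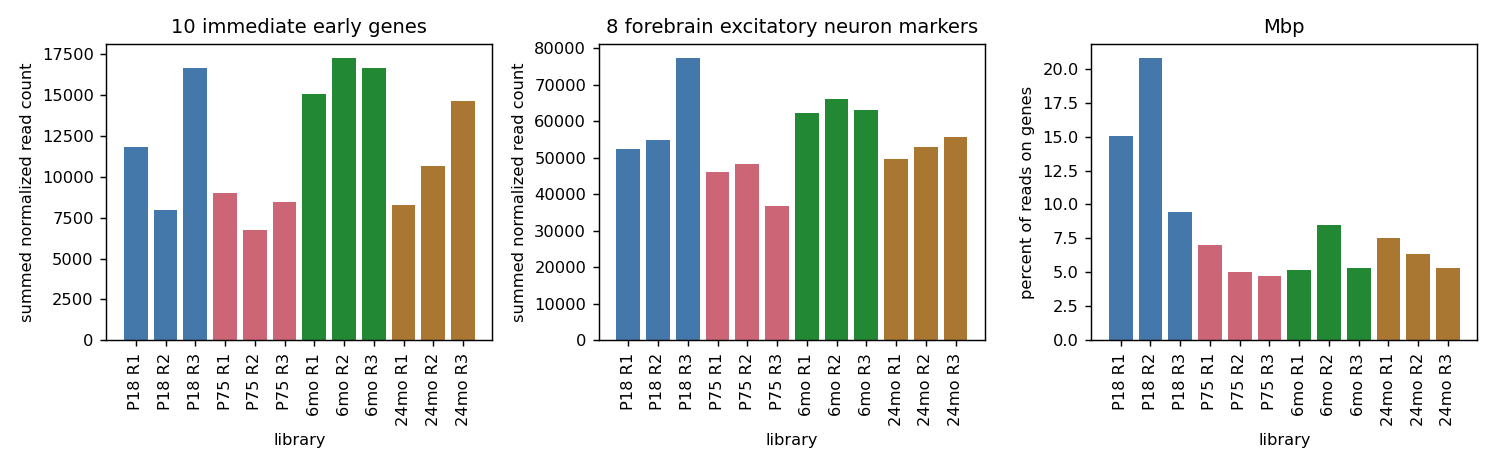
Summed normalized read count of the 10 immediate early genes (left), summed normalized read count of 8 markers of forebrain excitatory neurons (middle) and percent of reads on genes taken by Mbp (right) in each of the 12 libraries (x axis, coloured by age). In the left and middle panels the P75 bars are low and the 6-month bars are high, and in the right panel the P18 bars are the tallest, from 9.47% to 20.8%.

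Further genes of the same response were taken from lists of other rapid transcription factors, rapid effectors and upstream signalling genes. Over all genes tested, 25.9% were called higher and 22.9% lower in the step to P75. In the step to 6 months these shares were 31.2% and 29.4%, and in that to 24 months 16.6% and 12.7%. Of 24 other rapid factors tested, 12 were lower and 1 higher in the step to P75, 9 higher and 4 lower in that to 6 months, and 6 lower and 3 higher in that to 24 months. Their median log2 changes were -0.30, 0.04 and -0.09, so that from P75 to 6 months the list as a whole did not show the rise seen for Fos or Egr2. Fosl2, an AP-1 partner, fell by 0.88 on the log2 scale to P75 (limma adjusted p = 1.76e-05), rose 1.97-fold to 6 months (limma adjusted p = 3.25e-06) and fell by 0.45 on the log2 scale to 24 months (limma adjusted p = 0.0113). Nr4a2, a close relative of Nr4a1, rose 2.12-fold from P75 to 6 months (limma adjusted p = 3.98e-07), and Nfil3 rose 2.76-fold (limma adjusted p = 1.29e-05). Jund, the AP-1 member that is present without a stimulus, fell by 0.62 on the log2 scale in the same step (limma adjusted p = 0.000335), and Myc fell by 0.60 on the log2 scale (limma adjusted p = 0.00285).

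Of 32 rapid effectors tested, 13 were lower and 7 higher in the step to P75, 14 higher and 8 lower in that to 6 months, and 5 lower and 3 higher in that to 24 months. Dusp5, a nuclear phosphatase for ERK, rose 4.96-fold from P75 to 6 months (limma adjusted p = 1.83e-05), from a low level. Its means at these ages were 23.8 ± 14.1 and 111 ± 15.8 normalized read counts (SD, n = 3 each). To 24 months Dusp5 fell by 1.13 on the log2 scale (limma adjusted p = 0.0215), although its relative Dusp1 was not called in either step. Vgf, a neuropeptide precursor, rose 1.76-fold from P75 to 6 months (limma adjusted p = 0.00484). Sgk1, a kinase that is abundant in oligodendrocytes and induced by glucocorticoids, moved the other way, as it rose 1.78-fold from P18 to P75 (limma adjusted p = 0.0196) and fell by 1.27 on the log2 scale to 6 months (limma adjusted p = 0.000823).

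Of 27 upstream signalling genes, 12 were lower and 6 higher in the step to P75, 10 higher and 8 lower in that to 6 months, and 9 lower and 2 higher in that to 24 months. From P75 to 6 months the median log2 change of this list was 0.026, against 0.005 over all genes tested, so the list as a whole did not rise. Mef2d, a MEF2 factor, also had its highest level at 6 months and its lowest at P75, with 247 ± 8.61, 147 ± 35.2, 436 ± 41.9 and 268 ± 30.4 normalized read counts in the order of age (SD, n = 3 each), a 3.0-fold rise from P75 to 6 months (limma adjusted p = 7.22e-07). Mef2a rose 2.46-fold in the same step (limma adjusted p = 7.72e-06) and fell by 0.78 on the log2 scale to 24 months (limma adjusted p = 0.00466). Elk4, an SRF partner, rose 1.84-fold from P75 to 6 months (limma adjusted p = 0.00109). Atf1, a relative of CREB, fell by 0.83 on the log2 scale in that step (limma adjusted p = 1.19e-05). From P18 to P75, Mapk3, which encodes the kinase ERK1, fell by 0.73 on the log2 scale (limma adjusted p = 4.02e-05).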

How the data were processed

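RNA-Seq of purified myelin was analysed from 12 libraries, 3 per age, grouped by the age in their titles. The authors aligned reads to mm9 with TopHat2 (2.0.8 by the submitters' processing notes, while the methods give another version), counted them on genes with HTSeq (0.5.4p1 by the same notes) and scaled the counts of each library by a DESeq size factor. This normalized read count is the deposited signal, neither corrected for length nor on a log scale. Whether the libraries or the counting used strand is not given in the sources used here.

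Values were tested as log2(normalized read count + 1), with changes given on that scale, using limma (3.58.1, trend) in R (4.3.3), in a single fit of age over 12 libraries for 14634 genes whose mean was 10 or more, with Benjamini-Hochberg adjustment and a threshold of 0.1. Within a library, 100% of the values were whole multiples of the value of 1 read (tolerance 0.02). The whole reads recovered in this way were tested with edgeR (4.0.16) and DESeq2 (1.42.0) as alternatives. Further alternatives were pseudocounts of 0.5 and 10, no filter, a mean over 100, an equal total, quantile normalization, a replicate block, a threshold of 0.05, only the ages compared, another exon length and each library left out. Scripts were tested on simulated data. Gene models were GENCODE vM1 on NCBIM37, which is mm9.

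The 10 members and the lists were chosen with earlier results of these data known. Genes of the rapid factor, effector and upstream lists were taken from the largest called rises and falls per list and step. Not all of these are named, and some that are not had larger changes than those named. The genes most alike were named by Pearson's r. Same-numbered libraries of different ages cannot share a mouse. Same-numbered libraries deviated together in every pair only for 6 months and P75, with correlations across genes of 0.101 to 0.187, and the block changed no call there. For 6 months and P18 these correlations ran from -0.061 to 0.163. Every value of the 10 genes rests on at least 66 reads, and the part of counting error in the spread was not measured.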

Additional observations from a re-analysis of the deposited data

How the results depend on the processing

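Of 1380 alternative values for the changes of single immediate early genes, 1214 kept direction and side of the threshold, 91 lost the call, 45 gained it and 30 changed sign, all of the last with a change that was not called. The calls of Fos, Fosb, Egr1, Egr2, Nr4a1 and Arc from P75 to 6 months were kept under every alternative run. The number of the 10 genes called moved by more than 1.5 times, with all libraries kept, only in comparisons that include 24 months. For 24 months against P75 it was 5, and became 3 without the filter on low values, 3 at a threshold of 0.05 and 8 with the replicate block. For 24 months against 6 months it was 4, and became 8 with only those ages in the fit and 2 at a threshold of 0.05. In these runs the calls over all genes went from 4287 to 5401 and to 2856. The cause was not tested. With the block the counts were otherwise 5 for P75 against P18, 7 for 6 months against P75, 6 for 24 against 6 months, 4 for 6 months against P18 and 4 for 24 months against P18. The pairing rests on a shared number only outside 6 months and P75, where the correlations of same-numbered libraries averaged between -0.114 and 0.05. On the recovered reads edgeR called 7080, 8948 and 4585 of all genes in the consecutive comparisons, against 7137, 8865 and 4287 by limma.

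With each library left out in turn, the count of the 10 genes called was 3 to 5 for P75 against P18, 6 to 7 for 6 months against P75, 1 to 8 for 24 against 6 months, 2 to 7 for 6 months against P18, 1 to 6 for 24 months against P18, 3 to 6 for 24 months against P75 and 6 to 9 for any difference. For 24 against 6 months, the calls over all genes were as few as 2478 without replicate 1 of 6 months. Log2 changes that changed sign ran, for P75 against P18, from -0.54 to 0.32 for Arc, -0.18 to 0.39 for Dusp1, -0.36 to 0.21 for Ier2 and -0.50 to 0.20 for Junb. For 6 months against P75 that of Dusp1 ran from -0.047 to 0.19, and for 24 against 6 months that of Npas4 from -0.64 to 0.12. For 6 months against P18 they ran from -0.10 to 0.47 for Dusp1, -0.082 to 0.32 for Egr1, -0.039 to 0.51 for Fos, -0.52 to 0.05 for Ier2 and -0.27 to 0.39 for Npas4. For 24 months against P18 they ran from -0.47 to 0.10 for Dusp1, -0.44 to 0.32 for Junb, -0.62 to 0.20 for Npas4 and -0.10 to 0.57 for Nr4a1, and for 24 months against P75 from -0.20 to 0.30 for Junb. The log2 change of Npas4 at 6 months against P18, 0.02, was -0.094 with quantile normalization, -0.092 in edgeR and -0.069 in DESeq2, and that of Dusp1 for P75 against P18, 0.07, was -0.013 in edgeR. By Spearman's rank correlation, 1 of the 5 genes most alike by log2 values and 2 of the 5 by deviations were named again.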
